A study of Homo sapiens with 6 samples.

Results

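Cadherins are cell surface glycoproteins that hold neighbouring cells together in a calcium-dependent manner. The genes described here are 10 classical and related cadherins chosen by symbol, of which 9 had a row in the count table of 34811 genes. They are the classical cadherins CDH1 (E-cadherin), CDH2 (N-cadherin), CDH3 (P-cadherin) and CDH4 (R-cadherin), the type II cadherins CDH6 and CDH24, the GPI-anchored CDH13 (T-cadherin), and CDH16 and CDH17, which have short cytoplasmic tails. CDH11, a type II cadherin of mesenchymal cells, was not analysed here. Of the 9 genes found, 7 passed the filter on low counts and were tested, while CDH13 and CDH17 did not.

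The cytoplasmic tails of classical and type II cadherins bind β-catenin and p120-catenin, and α-catenin links this complex to actin. E-cadherin is the main adherens junction cadherin of epithelia, whereas N-cadherin is typical of neural and mesenchymal cells. The exchange of the former for the latter is a known feature of epithelial-mesenchymal transition (EMT) in carcinomas. CDH6, first described in kidney, is also known as a surface protein of ovarian and renal carcinomas.

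OVCAR-3 is an established human ovarian carcinoma cell line. OV3/COX1KD cells carried a pRS HuSH-29 plasmid with an shRNA against COX-1, the enzyme encoded by PTGS1, and control OV3/SCR cells carried a scrambled shRNA in the same vector. Both were stable clones selected with puromycin, and RNA-seq was performed on 3 independent passages of a single clone per condition, so effects of clonal origin and of COX-1 depletion cannot be told apart. The question was how expression differed between COX-1 proficient and COX-1 depleted cells.

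Libraries held between 25291505 and 27391538 counts, and levels are given in TMM-normalized CPM, a gene's count relative to its library's scaled total. A level of 3 counts, taken as the floor of detection, corresponded to 0.113 to 0.120 CPM on this scale, and this floor covers counting error only. PTGS1, the targeted gene, was at 25.6 ± 1.02 CPM (SD, n = 3) in controls and 18.8 ± 0.639 (SD, n = 3) after knockdown, or 73.3% of the control level (edgeR FDR = 1.34e-06). The carcinoma markers PAX8, WT1, MUC16, EPCAM, KRT7, KRT8, KRT18 and SOX17 were present in every library, with summed levels of 4581 to 4623 CPM in OV3/SCR and 5815 to 5993 CPM in OV3/COX1KD. Of these 8 genes, 6 were higher and 2, PAX8 and KRT7, were lower in OV3/COX1KD cells at an FDR under 0.01. These were 75% and 25%, against 25.8% and 22.1% of all tested genes. Stroma and mesothelium markers summed to 25.6 to 28.1 CPM in OV3/SCR and 35.1 to 37.8 CPM in OV3/COX1KD, and LUM had at most 1 count per library. Among 4 tested of 8 genes, UPK3B was higher and COL1A1 lower, or 25% each, against 25.8% and 22.1% of all tested genes. The part of these markers in the cadherin differences was not tested. Of 4 endothelium and 4 leukocyte markers, 3 were tested and 0 called (edgeR; DESeq2 0, and 0 at an unadjusted p under 0.05), with sums of at most 3.57 and 1.34 CPM. Within OV3/COX1KD, replicate 2 differed most from the others, its counts giving chi-square values of 4.83 and 6.31 for each degree of freedom, against 1.89 between replicates 1 and 3.

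CDH6 was the most abundant of these cadherins, and CDH2 changed the most. Compared to OV3/SCR cells, OV3/COX1KD cells had higher CDH1, CDH3 and CDH6 and lower CDH2 and CDH24, at an FDR under 0.01 by edgeR's quasi-likelihood test. Thus 5 of the 9 genes found, of which 7 were tested, were called. Of the 17309 genes tested in all, 47.9% were called, 25.8% as higher and 22.1% as lower. With so few cadherins and so many genes called, nothing is read from the count itself. With the added fold change above 2.5, CDH2 was called, against 3.92% of tested genes. Of all calls, 53.9% were rises, and 41.0% when libraries were scaled by total counts alone; the direction of each called cadherin was the same under either scaling.

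**Figure D1:**
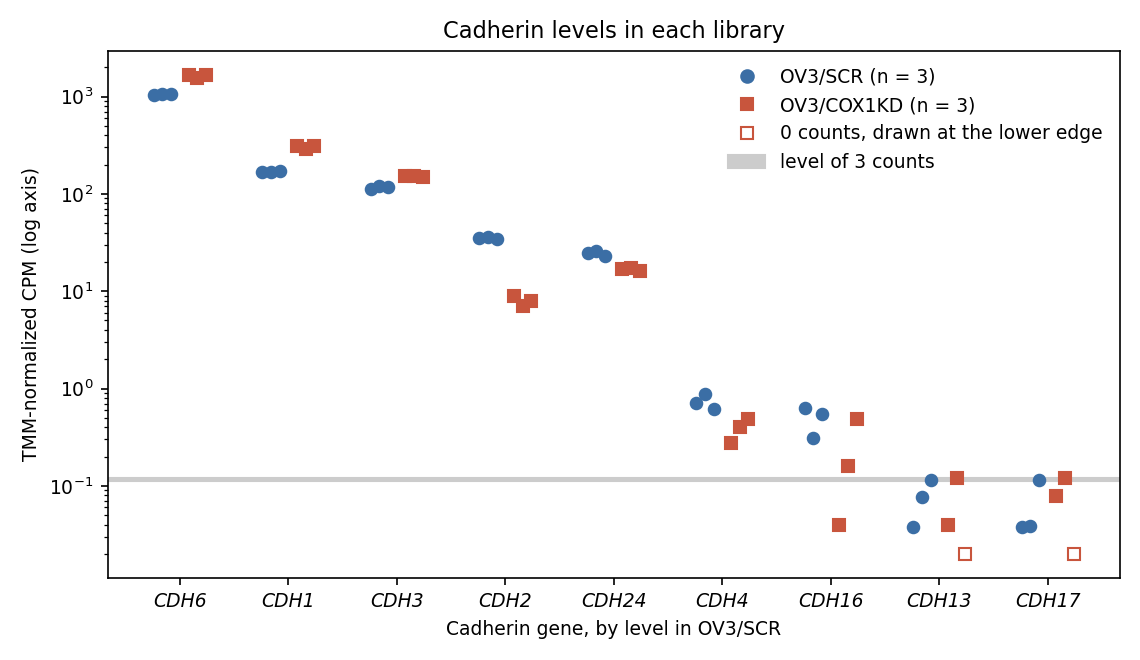
Level of each cadherin gene in TMM-normalized CPM on a log axis, for 3 OV3/SCR (circles) and 3 OV3/COX1KD (squares) libraries, with the level of 3 counts as a grey band. CDH6 lies between 1042 and 1676 CPM, CDH2 falls from about 35 to under 10 CPM, and CDH13 and CDH17 lie in or below the band, with open squares for 0 counts.

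E-cadherin was counted 4420, 4346 and 4395 times in the 3 OV3/SCR libraries and 7854, 7172 and 8249 times in the 3 OV3/COX1KD libraries. Each OV3/COX1KD library was far above each OV3/SCR library, with OV3/COX1KD replicate 2 the lowest of its group. The gene (ENSG00000039068, + strand of chromosome 16 in GRCh37, 68771195 to 68869440) was 1.81-fold higher, a log2 fold change of 0.85 (SE 0.0343, FDR = 5.88e-14).

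P-cadherin, an epithelial classical cadherin often found together with E-cadherin, had 2968, 3135 and 3060 counts in OV3/SCR libraries and 3814, 3802 and 3947 in OV3/COX1KD libraries. The groups did not overlap, and the rise was smaller than that of CDH1. CDH3 (ENSG00000062038, chromosome 16 from 68670092 to 68761371) was 1.29-fold higher, a log2 fold change of 0.37 (SE 0.0345, FDR = 2.06e-08). CDH3 lies directly before CDH1 on the same strand, with 9823 bases between the annotated genes.

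Although neighbours, these genes rose by unequal amounts. The ratio of CDH1 to CDH3 counts, which does not depend on library scaling, was 1.49, 1.39 and 1.44 in OV3/SCR libraries and 2.06, 1.89 and 2.09 in OV3/COX1KD libraries. Every OV3/COX1KD ratio was above every OV3/SCR ratio. With 3 libraries per condition the exact permutation test cannot give a two-sided p below 0.1, so no test is given for this or the other count ratios.

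The other genes around the CDH3 and CDH1 pair were called in both directions. Of 41 tested genes within 1 Mb of CDH1, CDH3 among them, 6 were higher, 5 lower and 30 neither. The higher and lower counts stand against 25.8% and 22.1% of all tested genes, and the median log2 fold change was -0.043. TANGO6, the next protein-coding gene after CDH1, had a log2 fold change of 0.018 (SE 0.112, FDR = 0.901), a value that changed sign with total count scaling. ZFP90, before CDH3, had 0.35 (SE 0.118, FDR = 0.0159), and passed the threshold in 3 of the alternatives. In that window, 1 gene besides CDH1 itself had a log2 fold change at least as large in size as that of CDH1.

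K-cadherin was counted 27772, 27955 and 27548 times in OV3/SCR libraries and 42190, 39076 and 44077 times in OV3/COX1KD libraries. All OV3/COX1KD libraries were above all OV3/SCR libraries, and replicate 2 was again the lowest of its group. CDH6 (ENSG00000113361, chromosome 5 from 31193793 to 31329253) was 1.54-fold higher, a log2 fold change of 0.62 (SE 0.0303, FDR = 1.09e-12). By mean CPM it ranked 69 among the tested genes in OV3/SCR and 37 in OV3/COX1KD cells. In absolute terms it gained 570 CPM, whereas CDH1 gained 135 CPM and CDH3 gained 33.8 CPM.

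The nearest tested gene to CDH6 was lower, not higher. DROSHA, the nuclear RNase of microRNA processing, had a log2 fold change of -0.23 (SE 0.0390, FDR = 4.58e-05). PDZD2, which encodes a PDZ domain protein further along the same arm, had 0.63 (SE 0.0644, FDR = 7.27e-08). In all, 3 of the 6 tested genes within 1 Mb of CDH6 were higher and 1 was lower. Of all tested genes, 25.8% were higher and 22.1% lower. The median log2 fold change of the 6 was 0.230, and PDZD2 had a change at least as large as that of CDH6.

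N-cadherin had 943, 929 and 892 counts in OV3/SCR libraries and 227, 177 and 212 in OV3/COX1KD libraries. The lowest OV3/SCR library held several times the counts of the highest OV3/COX1KD library. CDH2 (ENSG00000170558, chromosome 18 from 25512843 to 25757910) was 4.39-fold lower, a log2 fold change of -2.13 (SE 0.0701, FDR = 3.12e-15). Its level in OV3/COX1KD cells was 22.8% of that in OV3/SCR cells. In a bulk culture, fewer cells with the transcript and less transcript per cell cannot be told apart. CDH2 lies in a stretch with few expressed genes, and the 1 other tested gene within 1 Mb, the long non-coding RNA AQP4-AS1, had a log2 fold change of -0.276 (FDR = 0.542).

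As CDH2 had the largest change of the family, the bases upstream of its RefSeq starts are shown. The RefSeq promoter table gave entries for CDH2 and CDH4, 2 starts for each gene. No entry matched CDH1, CDH3, CDH6, CDH13, CDH16 or CDH24. CDH17 was left out of this selection, so whether it had an entry was not examined. The table's windows run from 250 bases before to 50 after a start, and the 250 upstream bases are printed 5′ to 3′ on the transcribed (minus) strand, at the positions where they matched GRCh37. Capitals mark a GC box (GGGCGG) or a CCAAT box (CCAAT) on either strand. The bases before the first start are chr18:25757095-25757344 and those before the second chr18:25616606-25616855, both within the annotated span of CDH2.
CDH2 first start: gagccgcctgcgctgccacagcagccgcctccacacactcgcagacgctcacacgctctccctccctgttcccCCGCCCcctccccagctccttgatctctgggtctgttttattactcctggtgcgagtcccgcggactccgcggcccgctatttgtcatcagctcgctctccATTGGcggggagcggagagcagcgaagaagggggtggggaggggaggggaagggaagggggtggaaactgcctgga
CDH2 second start: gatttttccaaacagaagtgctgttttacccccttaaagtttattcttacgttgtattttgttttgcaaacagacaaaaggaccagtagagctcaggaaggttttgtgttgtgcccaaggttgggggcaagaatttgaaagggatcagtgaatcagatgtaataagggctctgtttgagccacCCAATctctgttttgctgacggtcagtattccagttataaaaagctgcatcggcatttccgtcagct

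The sequences differ in base composition. The window of the first start was 67.0% G and C and that of the second 40.7%, against a median of 58.7% over all 35116 windows of the table. The first held a GC box beginning at position -177 and a CCAAT box beginning at -76, both on the opposite strand, counted from the start. The second held a CCAAT box beginning at -67. GC boxes were present in 45.0% of all windows and CCAAT boxes in 34.6%. The letters CAGGTG, the E-box type known to be bound by SNAIL and ZEB factors, did not occur on either strand of the CDH2 windows, occurred once near the first listed CDH4 start, and were present in 20.6% of all windows. Gene counts do not separate transcripts from different starts, so which start the CDH2 counts came from was not measured.

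CDH24, a type II cadherin, had 665, 679 and 599 counts in OV3/SCR libraries and 429, 429 and 432 in OV3/COX1KD libraries. The OV3/COX1KD values were nearly the same and all lay below the OV3/SCR values. CDH24 (ENSG00000139880, chromosome 14 from 23516271 to 23526747) was 1.47-fold lower, a log2 fold change of -0.56 (SE 0.0609, FDR = 1.64e-07). Its nearest tested neighbour, ACIN1, which encodes the RNA-binding protein acinus and lies 1026 bases away, had a log2 fold change of -0.25 (SE 0.0307, FDR = 9.78e-07). Over the 35 tested genes within 1 Mb the median was 0.002. Of these, 5 were higher, 9 lower and 21 neither, against 25.8% higher and 22.1% lower of all tested genes.

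**Figure D2:**
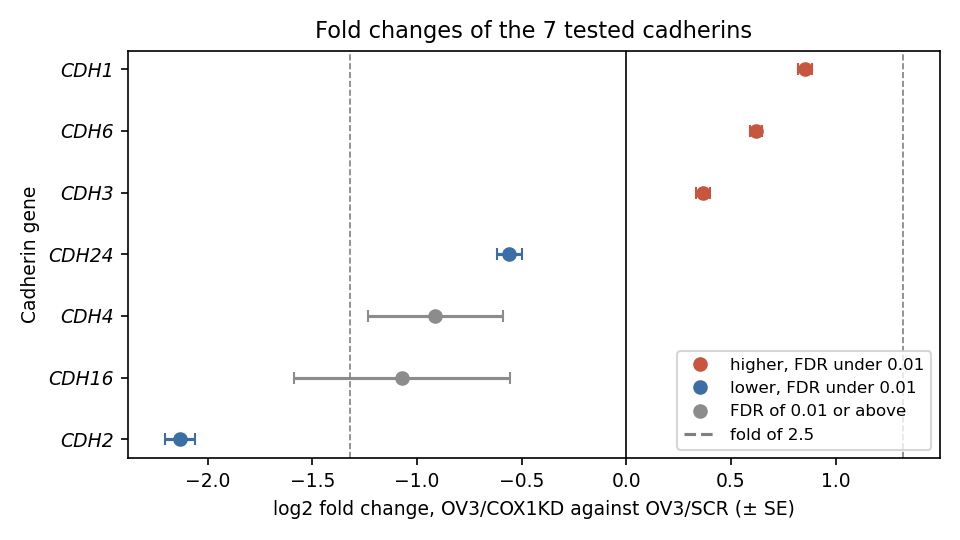
Log2 fold change of OV3/COX1KD against OV3/SCR with its SE for the 7 tested cadherins, with dashed lines at a fold of 2.5. CDH1, CDH6 and CDH3 lie to the right of 0, CDH24 and CDH2 to the left, CDH2 lies beyond the dashed line, and CDH4 and CDH16 have wide errors.

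R-cadherin, known from retina and other neural tissue, was scarce. It had 19, 23 and 16 counts in OV3/SCR libraries and 7, 10 and 13 in OV3/COX1KD libraries. The groups did not overlap, although the difference did not pass the threshold. For CDH4 (ENSG00000179242, chromosome 20, 59827317 to 60515673) the log2 fold change was -0.91 (SE 0.324, FDR = 0.0211), and no alternative brought it under an FDR of 0.01, the smallest being 0.0127.

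The kidney cadherin CDH16 had 17, 8 and 14 counts in OV3/SCR libraries and 1, 4 and 13 in OV3/COX1KD libraries. OV3/COX1KD replicate 3 overlapped the control range while the other OV3/COX1KD replicates were lower. For CDH16 (ENSG00000166589, chromosome 16, 66942025 to 66952820) the log2 fold change was -1.07 (SE 0.516, FDR = 0.0826). Without OV3/COX1KD replicate 3 the log2 fold change was -2.26 (FDR = 0.00468), so its call turned on 1 library.

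CDH13 and CDH17, the intestinal and liver cadherin, were at or under 3 counts in all 6 libraries. CDH13 (ENSG00000140945, chromosome 16 from 82660570 to 83834245) had 1, 2 and 3 counts in OV3/SCR and 1, 3 and 0 in OV3/COX1KD libraries. CDH17 (ENSG00000079112, chromosome 8 from 95139390 to 95229531) had 1, 1 and 3 counts in OV3/SCR and 2, 3 and 0 in OV3/COX1KD libraries. A difference in either gene was not detectable at this depth, and without the filter their FDRs were 0.782 and 0.986. The neighbours of CDH17 were expressed, and of 17 tested genes within 1 Mb, 9 were higher in OV3/COX1KD and 0 lower. Of all tested genes, 25.8% were higher and 22.1% lower. The median log2 fold change of these neighbours was 0.281, against -0.009 over all tested genes, and the smallest was 0.031.

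To compare levels between genes, CPM was divided by the length of each gene's MANE Select transcript in kilobases. In OV3/SCR cells CDH6 stood at 124 ± 1.90 CPM per kb (SD, n = 3), CDH1 at 34.8 ± 0.458, CDH3 at 26.2 ± 1.06, CDH2 at 8.76 ± 0.149 and CDH24 at 7.24 ± 0.426. In OV3/COX1KD cells CDH6 stood at 191 ± 7.28 CPM per kb (SD, n = 3), CDH1 at 62.9 ± 2.97, CDH3 at 33.8 ± 0.453, CDH24 at 4.92 ± 0.147 and CDH2 at 2.00 ± 0.244. No library of one of these genes overlapped the next in the order, so the order of the 5 abundant cadherins was larger than the spread between libraries in each condition. CDH16 and CDH4, both at or below 0.223 CPM per kb in every library, overlapped each other, and so did CDH17 and CDH13.

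CDH2 and CDH24 changed places between the conditions on this scale. With the length of all annotated exons instead, which is much longer than the MANE Select transcript for CDH2, CDH2 was at 4.10 and CDH24 at 6.60 CPM per kb in OV3/SCR cells, and at 0.934 and 4.48 in OV3/COX1KD cells. The order of this pair in OV3/SCR therefore depended on the length used, whereas in OV3/COX1KD cells CDH24 was above CDH2 with either length.

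The summed level of the 9 cadherins in CPM per kb was 202 ± 3.18 (SD, n = 3) for control libraries and 295 ± 10.2 (SD, n = 3) for knockdown libraries. CDH6 made up most of it in both, with 61.6% ± 0.0502 in OV3/SCR and 64.8% ± 0.240 in OV3/COX1KD. The share of CDH1 was 17.3% ± 0.260 in OV3/SCR and 21.3% ± 0.292 in OV3/COX1KD. Although CDH3 rose in level, its share was 13.0% ± 0.324 in OV3/SCR and 11.5% ± 0.485 in OV3/COX1KD. The share of CDH2 was 4.35% ± 0.103 in OV3/SCR and 0.676% ± 0.0614 in OV3/COX1KD, and that of CDH24 was 3.59% ± 0.211 and 1.67% ± 0.0914. Shares are given as the mean and SD of n = 3 libraries, without a test. Without a length correction CDH6, which has the longest transcript of these genes, took 75.4% in OV3/SCR and 77.3% in OV3/COX1KD.

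**Figure D3:**
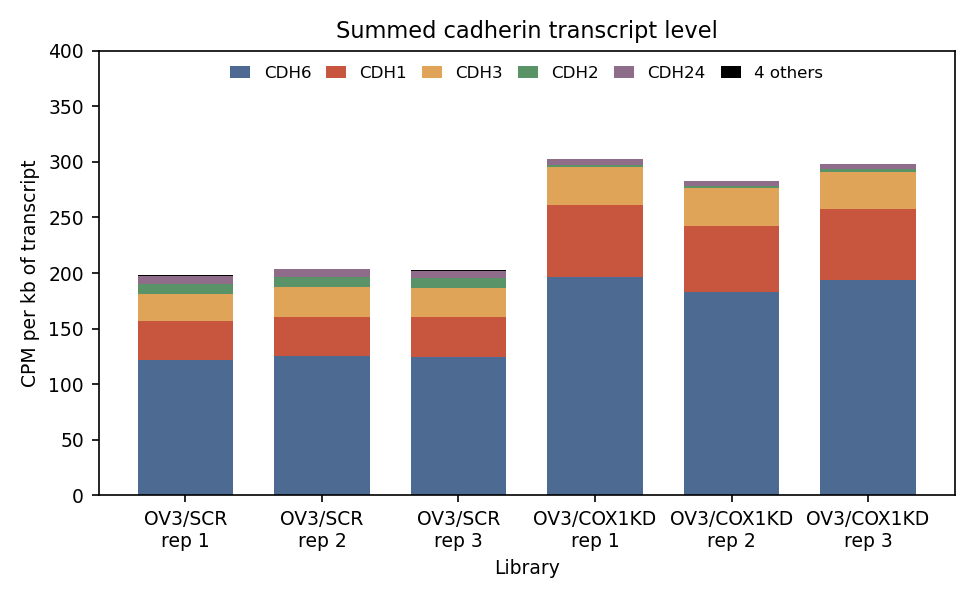
Stacked level of the cadherins in CPM per kb of MANE Select transcript in each of the 6 libraries. The OV3/COX1KD stacks reach 283 to 302 and the OV3/SCR stacks 198 to 204, CDH6 fills the largest part of every stack, and the CDH2 layer is thin in OV3/COX1KD.

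The balance of E-cadherin to N-cadherin moved the most. CDH1 was counted 4.69, 4.68 and 4.93 times for each CDH2 count in the OV3/SCR libraries, and 34.6, 40.5 and 38.9 times in the OV3/COX1KD libraries. The mean ratio of 38.0 ± 3.06 (SD, n = 3) after knockdown was 7.98-fold that of 4.76 ± 0.141 (SD, n = 3) in controls. The ratio of CDH6 to CDH1 counts was 6.33 ± 0.0908 (SD, n = 3) for control libraries and 5.39 ± 0.0544 (SD, n = 3) for knockdown libraries, 0.851 times the control value. The CDH6 to CDH2 ratio lay between 29.4 and 30.9 in OV3/SCR and between 186 and 221 in OV3/COX1KD libraries, 6.80-fold higher. The CDH6 to CDH1 balance therefore shifted much less than the balance of either gene to CDH2.

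**Figure D4:**
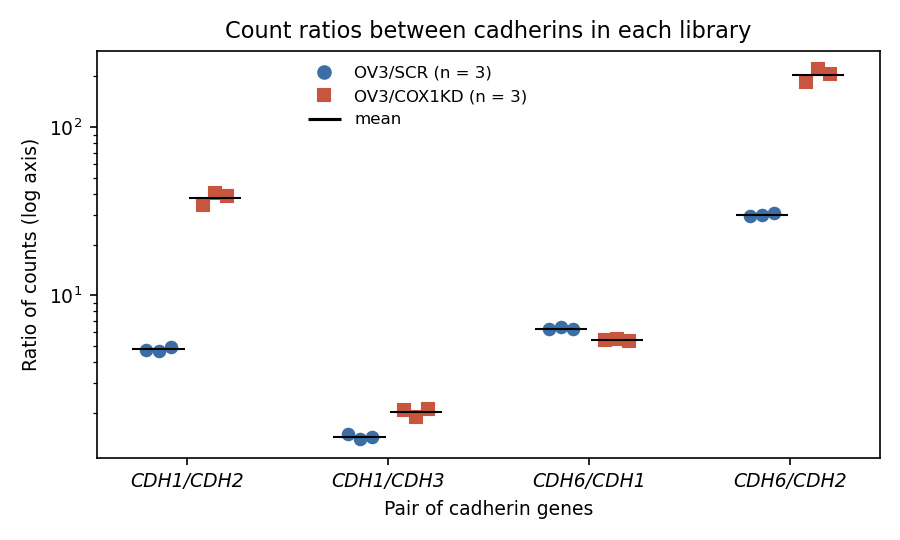
Ratio of counts between pairs of cadherin genes on a log axis, for each OV3/SCR (circles) and OV3/COX1KD (squares) library, with the mean as a line. The CDH1/CDH2 and CDH6/CDH2 ratios are several times higher in OV3/COX1KD, while CDH1/CDH3 and CDH6/CDH1 differ by less.

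Among the cytoplasmic partners, most tested catenins were called, with small changes. Of 10 catenin and catenin-related genes, 8 were tested, 5 were higher and 2 were lower, or 62.5% and 25%, against 25.8% and 22.1% of all tested genes. The median log2 fold change was 0.150 against -0.009 over all tested genes. JUP (plakoglobin, shared with desmosomes) had a log2 fold change of 0.34 (SE 0.0349, FDR = 6.17e-08). CTNNA2, the α-catenin of neural tissue, had 0.52 (SE 0.137, FDR = 0.00298), from 70 to 75 counts in OV3/SCR to 92 to 107 in OV3/COX1KD, and missed the threshold by DESeq2 (0.0140). ARVCF, of the p120-catenin family, fell by 0.49 on the log2 scale (SE 0.0610, FDR = 9.52e-07).

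The core catenins of the junction were abundant and moved little. CTNNA1 (α-catenin) rose from 543 to 609 mean CPM, a log2 fold change of 0.16 (SE 0.0289, FDR = 6.54e-05), and CTNNB1 (β-catenin) from 584 to 642, a log2 fold change of 0.13 (SE 0.0305, FDR = 8.29e-04). CTNND1 (p120-catenin) was at 324 and 340 mean CPM, a log2 fold change of 0.070 (SE 0.0347, FDR = 0.0897). With total count scaling CTNNA1 and CTNNB1 lost their call, as CTNNB1 did without OV3/SCR replicate 2 (FDR = 0.0103), and CTNND1 changed sign with total count scaling, under which 5 catenins were called.

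Genes of the junction plaque and of actin linkage were called in both directions. Of 10 tested, 5 were lower and 1 was higher, or 50% and 10%, against 22.1% and 25.8% of all tested genes, with a median log2 fold change of -0.168. ZYX (zyxin, a LIM domain protein of focal adhesions and actin fibres) fell by 1.12 on the log2 scale (SE 0.0372, FDR = 3.83e-15), from 202 to 92.9 mean CPM. TES (testin) fell by 0.70 (SE 0.0573, FDR = 2.90e-09) and AJUBA, which binds α-catenin, by 0.52 (SE 0.0348, FDR = 1.55e-10). These 3 LIM domain proteins also act away from adherens junctions.

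The nectins, immunoglobulin-type receptors that act beside cadherins at adherens junctions, were partly higher. Of 5 tested genes, 3 were higher by edgeR and by DESeq2, against 25.8% of all tested genes, with a median log2 fold change of 0.349. NECTIN2 had 0.40 (SE 0.0355, FDR = 1.02e-08), NECTIN3 had 0.35 (SE 0.0451, FDR = 1.60e-06) and NECTIN4 had 0.42 (SE 0.0742, FDR = 6.11e-05).

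Genes of cadherin cleavage and turnover were called in both directions, with 5 higher and 2 lower of 12 tested and a median of 0.147. Their shares of 41.7% and 16.7% stood beside 25.8% and 22.1% of all tested genes. PTPRM, a receptor-type tyrosine phosphatase of cell contacts that associates with cadherins, had 1757, 1584 and 1622 counts in OV3/SCR and 521, 489 and 572 in OV3/COX1KD libraries. It fell by 1.62 on the log2 scale (SE 0.0503, FDR = 1.25e-15), the largest change of the list. PTPN1, a cytoplasmic phosphatase, fell by 0.51 (SE 0.0387, FDR = 9.72e-10). APH1A, a subunit of the γ-secretase that cleaves cadherins after shedding, rose by 0.56 (SE 0.0315, FDR = 1.03e-11). NCSTN (nicastrin), another subunit, rose by 0.36 (SE 0.0324, FDR = 9.52e-09). RAB11A, a small GTPase of the recycling endosome, rose by 0.42 (SE 0.0305, FDR = 3.93e-10).

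Of the known repressors of CDH1 listed, no tested gene passed the threshold. Of 11 genes, 9 were found and 5 tested, with a median log2 fold change of 0.025. The 4 found but not tested had at most 11 counts in any library, and genes not found were not examined. By edgeR 0 were called, by DESeq2 0, and 2 had an unadjusted p under 0.05. SNAI1 (SNAIL) was at 5.30 and 4.39 mean CPM, a log2 fold change of -0.27 (SE 0.115, FDR = 0.0501). ZEB1 had at most 1 count in any library, and ZEB2 had 11, 3 and 1 counts in OV3/SCR and 3, 0 and 2 in OV3/COX1KD libraries. Both were at or near the floor in these cells.

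Factors of the epithelial state were higher in 4 and lower in 1 of 8 tested genes, against 25.8% and 22.1% of all tested genes, with a median of 0.096. FOXA1, a forkhead transcription factor, had 75, 60 and 69 counts in OV3/SCR and 155, 144 and 135 in OV3/COX1KD libraries, and rose by 1.12 on the log2 scale (SE 0.132, FDR = 4.81e-07). ESRP1, a splicing regulator of epithelial cells, rose by 0.59 (SE 0.0309, FDR = 3.26e-12). It is among the 17 tested genes within 1 Mb of CDH17, whose median log2 fold change was 0.281. KLF4, a zinc finger factor, fell by 0.39 (SE 0.0671, FDR = 4.97e-05).

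**Figure D5:**
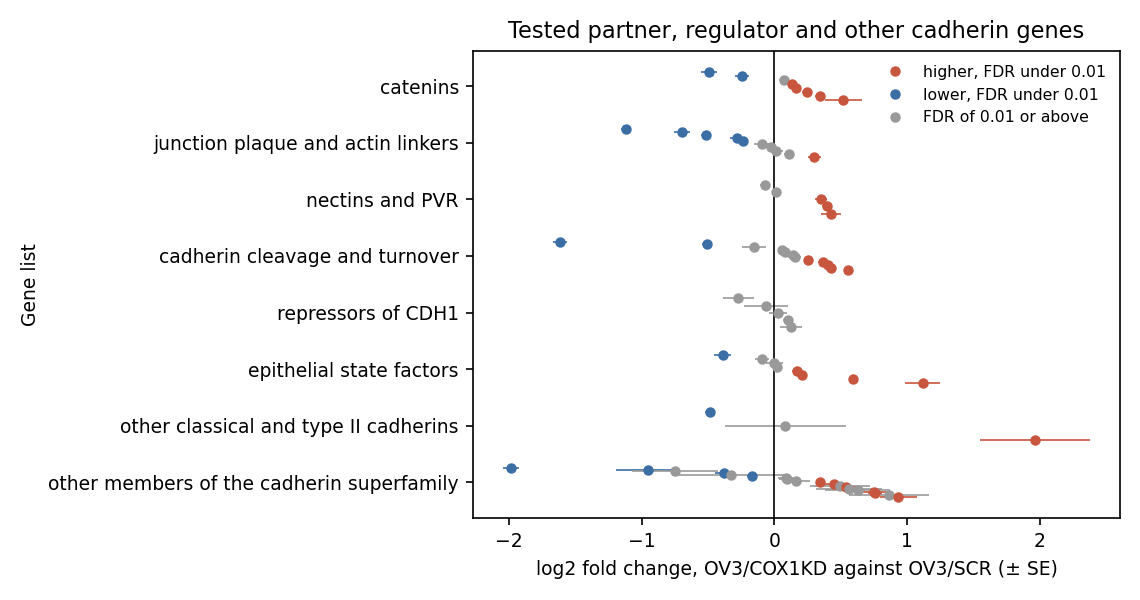
Log2 fold change of OV3/COX1KD against OV3/SCR with its SE for each tested gene, grouped by list, with genes at an FDR under 0.01 coloured by direction. The called nectins and 5 of the 7 called catenins lie right of 0, 5 of the 6 called junction plaque and actin linker genes lie left of it, and ZYX, PTPRM and CLSTN2 are the lowest points of their lists.

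Most other classical and type II cadherins were scarce. Of 11 further genes, 9 were found, 3 were tested, 1 was higher and 1 lower. Each was 33.3% of the tested genes of the list, against 25.8% and 22.1% of all tested genes. The exception in abundance was CDH18, a type II cadherin known from the nervous system, with 2908, 2735 and 2724 counts in OV3/SCR and 1941, 1844 and 2055 in OV3/COX1KD libraries. It fell by 0.49 on the log2 scale (SE 0.0355, FDR = 4.94e-10), and its mean of 107 CPM in OV3/SCR was above that of CDH2. CDH12, another neural type II cadherin, had 6, 4 and 2 counts in OV3/SCR and 16, 13 and 18 in OV3/COX1KD libraries. It rose by 1.97 on the log2 scale (SE 0.416, FDR = 4.35e-04). It passed the filter on low counts only through its OV3/COX1KD libraries, the group in which it was called higher. Nothing further is read from this call. CDH7 had between 3 and 15 counts per library and showed no difference past the threshold (FDR = 0.890).

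In the wider cadherin superfamily 19 of 20 genes were tested, of which 6 were higher and 4 lower, with a median of 0.343. These shares of 31.6% and 21.1% were near those of all tested genes, 25.8% and 22.1%. CLSTN2, a calsyntenin known from synapses, had 1053, 1080 and 1046 counts in OV3/SCR and 282, 237 and 266 in OV3/COX1KD libraries. Its log2 fold change of -1.99 (SE 0.0622, FDR = 1.44e-15) was the closest in size to that of CDH2 in this list. CELSR1, a planar cell polarity cadherin, rose from 124 to 211 mean CPM, a log2 fold change of 0.76 (SE 0.0530, FDR = 2.42e-10). FAT3, a very large atypical cadherin, rose by 0.94 (SE 0.139, FDR = 9.11e-06), and the scarce CDHR4 fell by 0.95 (SE 0.242, FDR = 0.00222), a call that was lost by DESeq2 (0.0106).

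Of the 9 cadherins, CDH1, CDH2, CDH3, CDH6 and CDH13 share exon sequence with another counted gene. Exons of other counted genes covered 8.40% of the exon length of CDH3, 5.71% of that of CDH1, 3.58% of that of CDH2 and 1.00% of that of CDH6, and those partner genes had between 0 and 19 counts per library. For CDH13 the antisense gene CDH13-AS2 covered 21.4% of the exon length. The library kit did not mark strand, so reads of a gene and of its antisense partner cannot be told apart there. The part of shared reads in the differences was not tested.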

How the data were processed

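RNA-seq counts of 3 OV3/SCR and 3 OV3/COX1KD libraries were analysed, grouped by the labels. Alignment by the authors used TopHat2 (2.0 per the labels) and hg19, and the deposited values are raw HTSeq counts per gene. Annotation and strand setting are not given in the sources used here. Counts of 34811 genes were scaled by TMM, filtered by filterByExpr (17309 kept) and compared by edgeR 4.0.16 quasi-likelihood tests in R 4.3.3, with Benjamini-Hochberg adjustment over all kept genes (FDR) and thresholds of FDR under 0.01 and, where stated, fold above 2.5, as in the study. The SE is the log2 fold change divided by the square root of F. The common dispersion was 0.00103 and reflects passages of 1 clone per condition. Alternatives were RLE, total count scaling, no filter, 10 counts in every library, DESeq2 1.42.0, the replicate block, each library left out and glmTreat. Exon-union length was added after seeing the data. Positions and lengths came from GENCODE 44 on GRCh37, the build of hg19, and 33556 genes matched by ID. Promoters came from RefSeq (GRCh38.p14) and were matched exactly to GRCh37. The cadherins and gene lists were chosen with earlier results of these data known. All 10 cadherins, PTGS1, and the 3 called genes of each list with the largest absolute log2 fold changes were to be named, any other list gene could be, and genes next to CDH1, CDH3 and CDH2 were to be given. DROSHA, PDZD2 and ACIN1 were added after their values were seen. The scripts were tested on simulated data.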

Additional observations from a re-analysis of the deposited data

How the results depend on the processing

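The calls and directions of CDH1, CDH2, CDH3, CDH6 and CDH24 were the same under each alternative other than glmTreat, and CDH4 was never called. As a test against a fold of 2.5, glmTreat called 1 cadherin. Apart from glmTreat, the number of cadherins called was 5 in every setting except without OV3/COX1KD replicate 3. Over the 6 fits that left out a library it lay between 5 and 6. With a fold above 2.5 it was 1 to 2 over those fits, and the log2 fold change of CDH16 lay between -2.26 and -0.59. With the replicate number as a block, 8233 genes differed against 8293 without it, 5 cadherins were called, and no cadherin's call changed. Same-numbered libraries of the conditions deviated with correlations of 0.0022 to 0.044, too close to 0 to pair them. Signs reversed for uncalled genes: with total count scaling for CTNND1 (-0.0077) and TANGO6 (-0.060), and on leaving out single libraries for TANGO6 (range -0.053 to 0.106) and CDH7 (-0.40 to 0.49). The count of CDH1 repressors called was 1 with no filter and without OV3/COX1KD replicate 2, in each case TCF3. With 10 counts required in every library, CDH4, CDH7, CDH12 and CDH16 gave no value, and 1 of the other classical and type II cadherins was called against 2. ZFP90 was called with no filter (FDR = 0.00928), without OV3/SCR replicate 3 (0.00809) and without OV3/COX1KD replicate 2 (0.00401), and CTNND1 without OV3/COX1KD replicate 2 (2.94e-05). CDHR4 and CTNNA2 lost their calls in 4 settings each. The cause of these changes was not tested. Genes of a few counts, such as CDH13 and CDH17, were limited by depth.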
